A study of Rattus norvegicus with 10 samples.

Results

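Expression of 10 genes of the disease-associated microglia programme, Gpnmb, Cd68, Lgals3, Spp1, Apoe, Lpl, Cd9, Cd63, Itgax and Cst7, was followed in the hippocampus of rats after traumatic brain injury (TBI). The 10 genes were taken from a list of symbols, and for each symbol the row with the highest mean count stood for the gene. The list was drawn up with the differences between TBI and sham rats in these libraries already known, so the genes were in part chosen by the values given here. Their TBI to sham differences are therefore a description and support no claim about the programme. Of 16604 named symbols with a row, 9 were from the list. No row matched Itgax, and Cst7 had too few counts to be tested, which left 8 genes in the comparison.

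Messenger RNA was sequenced from 10 adult male Sprague-Dawley rats of 1 time point, 3 months after surgery. The TBI group was 5 rats with lateral fluid percussion, a pressure pulse on the intact dura over the left parietal cortex, at 3.32 atm. The sham group was 5 rats with the same anaesthesia, midline incision and craniectomy but no impact. From each rat 1 library was made from tissue of the left hippocampus that held CA3 and dentate gyrus, so each value is 1 animal. The labels give the tissue as dorsal hippocampus. No cells were sorted. In bulk tissue a higher level from more cells of a type cannot be told apart from a higher level from more RNA per cell.

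Microglia are the resident macrophages of the brain. Around dying cells, amyloid and myelin debris they leave their homeostatic state, lower genes such as P2ry12 and Tmem119, and raise a set of lysosomal, lipid-handling and secreted proteins. The receptor Trem2 and its adaptor Tyrobp are known to be needed for the full programme, and Apoe is one of its early genes. Several of the genes are not made by microglia alone. Apoe and Cd9 are also strongly expressed by astrocytes and other glia, Cd63 by most cells, and Lpl by neurons.

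The promoters of Gpnmb, Cd68 and Cd63, all of them encoding proteins of the lysosomal or late endosomal membrane, are shown because they were the promoters of the list in which both the M-box core CATGTG and the AP-1 site TGAGTCA were found. The M-box is bound by Mitf and its relatives Tfeb and Tfe3, which drive lysosomal genes, and AP-1 sites are bound by Fos and Jun proteins. Each window is 300 bases of RefSeq sequence on build GRCr8, printed on the strand of the gene, from 250 bases before the start to 50 after it. Capitals mark matches on either strand to the M-box core, the AP-1 site, the E-box CACGTG and the PU.1 core GGAAGT.
Gpnmb, chr4:79340878-79341177, plus strand: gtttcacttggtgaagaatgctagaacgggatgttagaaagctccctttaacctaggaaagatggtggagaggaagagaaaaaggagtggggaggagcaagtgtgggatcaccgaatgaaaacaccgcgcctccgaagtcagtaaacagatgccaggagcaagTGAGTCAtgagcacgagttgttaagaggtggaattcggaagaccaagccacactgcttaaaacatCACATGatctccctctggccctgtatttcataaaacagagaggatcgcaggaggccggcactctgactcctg
Cd68, chr10:54882392-54882691, minus strand: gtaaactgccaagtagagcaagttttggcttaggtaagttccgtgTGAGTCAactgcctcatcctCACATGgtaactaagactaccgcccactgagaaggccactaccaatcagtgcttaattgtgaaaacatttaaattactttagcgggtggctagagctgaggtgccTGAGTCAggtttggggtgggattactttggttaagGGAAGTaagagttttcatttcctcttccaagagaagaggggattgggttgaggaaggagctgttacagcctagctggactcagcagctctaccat
Cd63, chr7:1921894-1922193, plus strand: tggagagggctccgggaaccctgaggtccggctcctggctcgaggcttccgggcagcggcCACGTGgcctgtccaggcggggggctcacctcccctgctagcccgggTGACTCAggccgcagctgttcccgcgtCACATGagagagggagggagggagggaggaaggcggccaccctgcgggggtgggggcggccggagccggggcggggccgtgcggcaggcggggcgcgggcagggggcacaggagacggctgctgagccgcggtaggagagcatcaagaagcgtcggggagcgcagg

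In Gpnmb the AP-1 site began 87 bases and the M-box core 22 bases before the start. Cd68 held 2 AP-1 sites, at 205 and 80 bases before the start, with an M-box core at 185 and a PU.1 core at 45. In Cd63 an E-box lay at 190 bases, an AP-1 site at 143 and an M-box core at 116. Of 33469 rat promoter windows of the same length, 14.0% held the M-box core, 4.63% the AP-1 site, 6.42% the E-box and 22.6% the PU.1 core, and 0.756% held both the M-box core and the AP-1 site. Windows were at hand for 8 of the 10 genes, 10 windows in all. The M-box core was also in windows of Apoe and Cd9, the AP-1 site in that of Itgax, and the PU.1 core in those of Itgax and Cst7. The TATA box TATAAA, present in 14.2% of all windows, was found in that of Spp1, and the GC box GGGCGG, in 33.1% of all windows, in windows of Apoe, Cd63, Cd68 and Cd9. No 2 matches overlapped in the 3 windows printed. These are letter matches and no binding was measured.

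Total counts were between 23425817 and 31671838 per library. Ribosomal RNA took 59.0% of the counts of sham rat 4 and 58.5% of those of sham rat 5, against 12.5% to 26.2% in the other 8 libraries. This share was 38.7 ± 18.3% in sham and 19.7 ± 5.23% in TBI rats (SD, n = 5 each, two-sided exact permutation test, p = 0.0238), and its part in the results was not tested beyond the fits given below. Levels are CPM values, counts scaled to a common library size that was adjusted by the trimmed mean of M values (TMM). They depend on transcript length and are compared between rats, never between genes. In sham rats 4 and 5 the same CPM rests on fewer reads: Gpnmb had 136 reads at 9.25 CPM in sham rat 4 and 297 reads at 9.27 CPM in sham rat 1.

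Gpnmb, a glycoprotein of lysosomes and the cell surface in phagocytic cells, was higher in TBI rats. In sham rats 1 to 5 its level was 9.27, 11.4, 21.8, 9.25 and 8.81 CPM. In TBI rats 1 to 5 it was 41.8, 36.3, 12.3, 27.5 and 29.3 CPM. In 4 TBI rats Gpnmb was above all sham rats, while TBI rat 3 lay below sham rat 3, so the groups overlapped. The means were 12.1 ± 5.53 CPM in sham and 29.4 ± 11.2 CPM in TBI rats (SD, n = 5 each). The fitted log2 change, TBI over sham, was 1.26 with a standard error of 0.381, or 2.40-fold.

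Cd68, the macrophage sialomucin of late endosomes and lysosomes, had low counts. Its sham levels were 1.47, 1.08, 4.13, 1.70 and 0.875 CPM, and its TBI levels were 3.94, 4.92, 1.99, 3.83 and 2.90 CPM. Sham rat 3 exceeded 4 of the 5 TBI rats. The fitted log2 change was 0.87 (standard error 0.404), on means of 1.85 ± 1.31 CPM in sham and 3.52 ± 1.11 CPM in TBI rats.

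Cd63, a tetraspanin of late endosomes and exosomes, was at 54.9, 57.1, 74.8, 63.8 and 53.5 CPM in sham rats and at 89.4, 88.6, 62.0, 79.1 and 83.5 CPM in TBI rats. As for Gpnmb, 4 TBI rats stood above every sham rat and TBI rat 3 lay inside the sham range. The change was 0.40 on the log2 scale (standard error 0.108). Cd9, a tetraspanin of the plasma membrane, showed 40.9, 52.7, 57.7, 50.1 and 43.2 CPM in sham rats and 79.1, 64.4, 48.6, 66.0 and 67.5 CPM in TBI rats. Again TBI rat 3 was the single injured rat that was not above the sham range. Its log2 change of 0.41 had a standard error of 0.117.

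**Figure D1:**
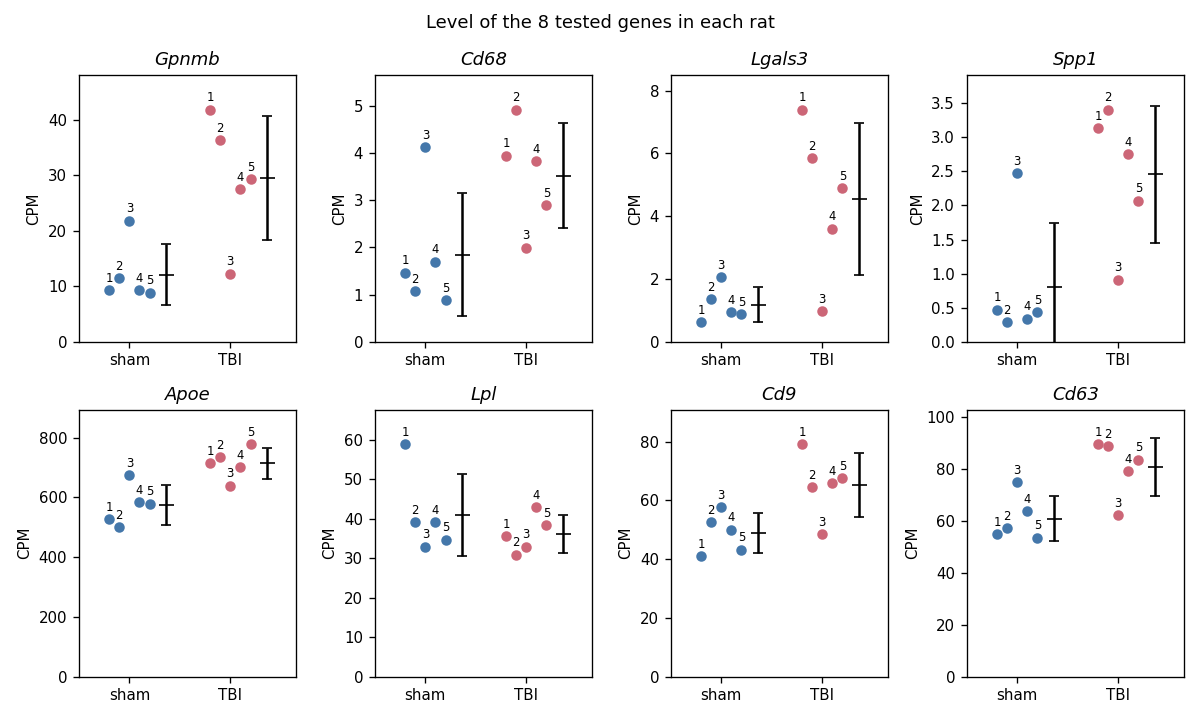
Level in CPM (vertical axis, linear and from 0, scaled to each gene) of the 8 tested genes in the 5 sham (blue) and 5 TBI (red) rats, with replicate numbers beside the points and the mean ± SD as black bars, cut at 0 for Spp1. Sham rat 3 is the highest sham rat and TBI rat 3 the lowest TBI rat in 7 of the 8 panels, Lpl being the exception.

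Of the 8 genes, those for the secreted lectin galectin-3 and for osteopontin had the highest fold changes, on few reads. Lgals3 encodes galectin-3, a lectin that binds damaged lysosomes and Trem2. Its levels were 0.624, 1.37, 2.05, 0.952 and 0.875 CPM in sham rats and 7.39, 5.85, 0.968, 3.61 and 4.89 CPM in TBI rats. TBI rats 1, 2, 4 and 5 all exceeded the sham range, and TBI rat 3 lay within it. The fitted log2 change was 1.91 (standard error 0.536), or 3.76-fold, resting on 14 to 63 reads per sham library and 33 to 255 per TBI library.

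Spp1 encodes osteopontin, a secreted ligand of integrins and Cd44. In sham rats it was at 0.468, 0.287, 2.47, 0.340 and 0.437 CPM. In TBI rats the values were 3.13, 3.41, 0.909, 2.75 and 2.07 CPM. Sham rat 3 was above TBI rats 3 and 5, whereas the other 4 sham rats were below every TBI rat. With 5 to 76 reads per sham library and 31 to 128 per TBI library, the fitted log2 change was 1.49 (standard error 0.609). Without sham rat 3 it was 2.66, and without TBI rat 3 it was 1.69.

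The 2 lipid genes differed from each other. Apoe, the main lipoprotein component made in the brain, had 528, 500, 674, 584 and 579 CPM in sham rats and 714, 735, 639, 701 and 777 CPM in TBI rats. Apoe was above the sham range in 4 TBI rats, and the fitted change was 0.32 on the log2 scale (standard error 0.0895), or 1.24-fold. Apoe has 5 rows of nearly identical transcripts, each with 18.9% to 23.2% of its reads, and the change of their sum was 0.31. Lpl, the lipoprotein lipase that frees fatty acids from lipoproteins, had 58.8, 39.1, 32.9, 39.0 and 34.6 CPM in sham rats and 35.5, 30.8, 32.9, 42.9 and 38.3 CPM in TBI rats. No TBI rat was above the sham range. Its fitted log2 change was -0.18 (standard error 0.143), and leaving out single rats moved it between -0.25 and -0.02.

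Cst7, cystatin F, an inhibitor of lysosomal cathepsins, had 12 reads over the 10 libraries, 5 in sham and 7 in TBI rats and at most 4 in 1 library. It was below the filter on total counts, and no fold is given. A difference in Cst7 between the groups was not detectable at this depth.

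In the fit across all 22431 rows kept by the filter, 6 of the 8 genes had an unadjusted p under 0.05, and all 6 were higher in TBI rats (Gpnmb, Lgals3, Spp1, Apoe, Cd9 and Cd63). Over all rows 4.89% passed this threshold as higher and 3% as lower, and none of the 8 genes passed it as lower. Unadjusted p-values ran from 0.00146 for Cd63 to 0.221 for Lpl. After Benjamini-Hochberg adjustment 0 of the 8 genes and 0% of all rows were under 0.05 by the quasi-likelihood test of edgeR, with adjusted p-values of 0.478 to 0.799 for the 8 genes. DESeq2 called 0 of the 8 genes and 3 rows in all. In none of the 8 genes was each TBI rat above each sham rat, which held for 0.499% of all rows. The median log2 change was 0.64 over the 8 genes and -0.01 over all rows. Since the list was made with this contrast known, nothing is read from these counts. The study's own list of altered genes in this model was chosen on this comparison at a stricter unadjusted threshold than here. Its methods give 3 controls where the labels give 5. That list also holds Gpnmb, Lgals3, Spp1, Cd63, Cd9 and Cd68, all with an adjusted p under 0.05 there by edgeR. Apoe is not in that list, and Cd68, which is in it, was not under an unadjusted 0.05 here by the quasi-likelihood test. By the exact test of edgeR Cd68 was under it here (unadjusted p = 0.0268, adjusted p = 0.555).

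With sham rats 4 and 5 left out, 4 of the 8 genes kept an unadjusted p under 0.05 (Lgals3, Apoe, Cd9 and Cd63), all higher, where 3.30% of all rows passed as higher and 2.29% as lower. Gpnmb, at 1.06 on the log2 scale (standard error 0.461), and Spp1, at 1.18 (standard error 0.704), were then not under it. With the ribosomal RNA share as a covariate in place of leaving rats out, the same 4 genes were under the threshold, beside 2.45% of all rows higher and 1.97% lower. Gpnmb was then at 1.03 (standard error 0.484) and Spp1 at 1.14 (standard error 0.767). All 6 changes were positive in both fits.

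The rats did not vary independently from gene to gene. Sham rat 3 was the highest sham rat for Gpnmb, Cd68, Lgals3, Spp1, Apoe, Cd9 and Cd63 and the lowest for Lpl. TBI rat 3 was the lowest TBI rat for the same 7 genes, and TBI rat 1 was the highest for Gpnmb, Lgals3, Cd9 and Cd63. The fitted values depended on sham rat 3 and TBI rat 3. Without sham rat 3 the log2 change was 1.60 for Gpnmb, 1.46 for Cd68 and 2.25 for Lgals3. Without TBI rat 3 it was 1.46, 1.02 and 2.17 in the same order.

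To describe which genes followed Gpnmb from rat to rat inside the groups, log2 CPM was centred on each group mean and correlated over the 10 rats, for 10712 genes with a mean of at least 1 CPM. The 6 genes outside the list most like Gpnmb were Id3 (r = 0.995, rho = 0.988), Tmie (r = 0.984, rho = 0.964), Gfap (r = 0.984, rho = 0.952), Serping1 (r = 0.982, rho = 0.964), Mvp (r = 0.978, rho = 0.939) and S1pr3 (r = 0.978, rho = 0.952). Id3 is an inhibitor of helix-loop-helix transcription factors, Gfap the intermediate filament of astrocytes and Serping1 the C1 inhibitor of complement. Without sham rat 3 and TBI rat 3, which were farthest from the median of Gpnmb, r was 0.986 for Id3, 0.945 for Gfap and 0.940 for Serping1. All values come from the same libraries and share their depth and dissection, and the correlations are given with no p.

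Among the listed genes Lgals3 came 19th of the 10712 in likeness to Gpnmb (r = 0.949), Cd63 30th (r = 0.933), Cd9 84th (r = 0.885), Spp1 96th (r = 0.878) and Cd68 218th (r = 0.812). Apoe was 625th (r = 0.664) and Lpl 7098th (r = -0.21). Without the same 2 rats r was 0.922 for Lgals3, 0.786 for Cd63, 0.749 for Cd9, 0.726 for Spp1 and 0.609 for Cd68, and 0.205 for Apoe. Of these 7 genes Lgals3 followed Gpnmb most closely and Lpl least.

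**Figure D2:**
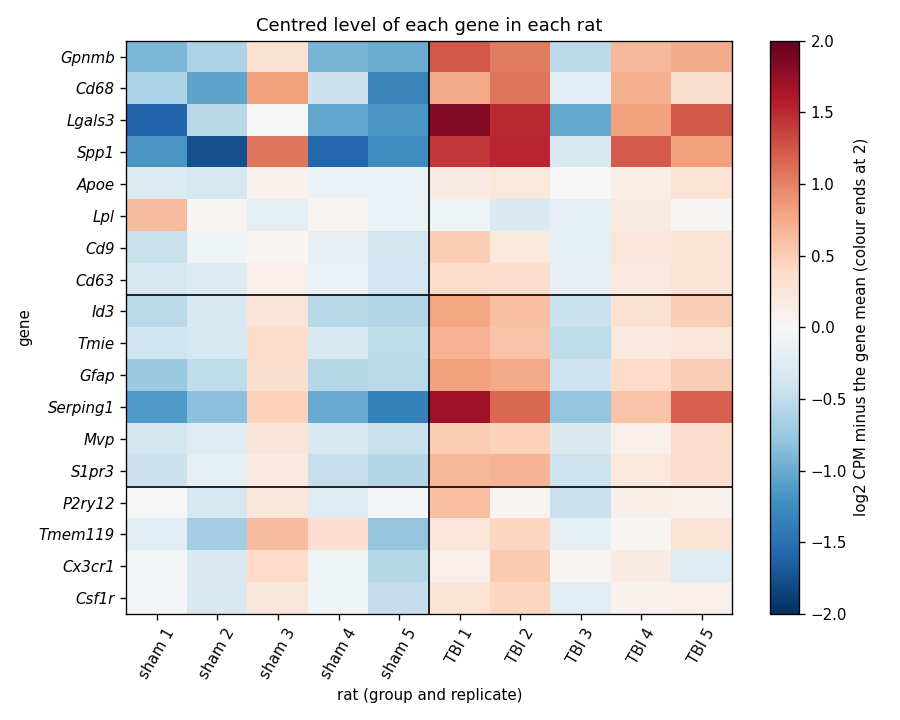
Log2 CPM minus the mean of each gene (colour, ending at 2 either way) for the 8 tested genes, the 6 genes most like Gpnmb and 4 homeostatic microglia genes in each rat (columns). Sham rat 3 is red or pale in all but Lpl among the 8 tested genes, TBI rat 3 is blue or pale, and Gpnmb, Cd68, Lgals3 and Spp1 have the strongest colours of the 8.

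Cell type markers were summed per rat to show what else moved with the 8 genes. The 12 homeostatic microglia genes with a row summed to 185 to 268 CPM in sham and 213 to 298 CPM in TBI rats, overlapping ranges with means of 221 ± 31.3 and 262 ± 34.1 CPM. The 6 astrocyte markers, all of them detected, summed to 1626 to 2476 CPM in sham and 1790 to 3348 CPM in TBI rats. In the homeostatic microglia sum and in the astrocyte sum alike, sham rat 3 was the highest sham rat and TBI rat 3 the lowest TBI rat. This was also so in the sum of pericyte markers, but not in those of neuron or oligodendrocyte markers. Most of the astrocyte sum was Gfap, at 1016 ± 346 CPM in sham and 1801 ± 523 CPM in TBI rats. Of the 6, 5 had a positive log2 change, and 2, Gfap and Aldh1l1, had an unadjusted p under 0.05 as higher. Slc1a3 and Slc1a2 differed by -0.0009 and 0.06 on the log2 scale. The 5 meningeal fibroblast markers summed to 8.19 to 21.0 CPM in sham and 14.1 to 24.4 CPM in TBI rats. Of the 5, 3 (Col1a1, Col1a2 and Igf2) were higher at an unadjusted p under 0.05. Dcn, at 1.52 ± 0.789 CPM in sham and 2.94 ± 2.38 CPM in TBI rats, was not under it. Lum went the other way, at 3.40 ± 3.74 CPM in sham and 1.88 ± 0.936 CPM in TBI rats, and was not under it either. The part of these cells in the levels of the 8 genes was not tested.

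Macrophages and leukocytes from outside the brain tissue can also make Gpnmb, Spp1 and Lgals3. Markers of border macrophages summed to 2.12 to 4.28 CPM in sham and 2.91 to 4.26 CPM in TBI rats. Of these 5 markers 4 had a positive log2 change, and 1, Pf4, was higher at an unadjusted p under 0.05. Pf4 was at 0.157 ± 0.0504 CPM in sham and 0.426 ± 0.134 CPM in TBI rats, on 94 reads in all. In Pf4 each TBI rat was above each sham rat, as in 0.499% of all rows. Mrc1 was at 1.04 ± 0.533 CPM in sham and 1.25 ± 0.217 CPM in TBI rats. Lyve1 went the other way, at 1.11 ± 0.371 CPM in sham and 0.934 ± 0.287 CPM in TBI rats. The 5 monocyte and neutrophil markers together had 0.741 ± 0.490 CPM in sham and 0.458 ± 0.137 CPM in TBI rats. The 4 T cell markers together had 0.283 ± 0.235 CPM in sham and 1.00 ± 1.06 CPM in TBI rats. Their highest sums were 0.687 CPM in a sham and 2.74 CPM in a TBI rat. Of these 4 only Cd3e was tested, on 194 reads in all. Its log2 change was 2.06 (standard error 0.993), not under an unadjusted 0.05. Neuron markers summed to 1195 to 1372 CPM in sham and 1092 to 1310 CPM in TBI rats, and oligodendrocyte markers to 2146 to 3085 and 2196 to 2905 CPM. Of the fields named in the study's methods, CA3 markers summed to 425 to 561 CPM in sham and 372 to 550 CPM in TBI rats. Dentate granule cell markers summed to 54.5 to 190 and 74.8 to 185 CPM. Sham rat 1 stood apart in both, with 54.5 CPM of dentate markers against 167 to 190 CPM in the other 4 sham rats, and 561 CPM of CA3 markers against 425 to 452 CPM. It was also the sham rat with the highest Lpl, and without it the log2 change of Lpl was -0.02 in place of -0.18. CA1 markers were at 48.3 to 98.8 CPM in sham but at 35.4 to 352 CPM in TBI rats, a wider range. Sham rat 3 was the highest sham rat, and TBI rats 2 and 1 were the highest TBI rats, at 352 and 203 CPM. TBI rat 4 was the lowest, and TBI rat 3 was at 95.9 CPM. Of the 2 CA1 markers, 1, Wfs1, was higher at an unadjusted p under 0.05 (log2 change 1.53, standard error 0.603), and Fibcd1 was not under it (0.79, standard error 0.517). The part of these differences in the levels of the 8 genes was not tested.

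Blood markers summed to 103 to 190 CPM in sham and 144 to 231 CPM in TBI rats, and 1 of the 3, Alas2, the heme synthesis enzyme of red cell precursors, was higher at an unadjusted p under 0.05 (log2 change 0.51, standard error 0.172). Choroid plexus markers summed to 5.98 to 34.9 CPM in sham and 11.3 to 35.8 CPM in TBI rats, and 1 of the 5, the folate receptor Folr1, was higher by the same threshold (0.81, standard error 0.324). Markers of endothelium summed to 50.7 to 67.6 and 58.0 to 68.8 CPM, those of pericytes to 14.6 to 18.1 and 14.5 to 20.6 CPM, and those of oligodendrocyte precursors to 50.6 to 64.3 and 45.9 to 63.5 CPM, with 0 of them under the threshold. The part of these markers in the result was not tested.

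Next, each of the 8 genes was divided by the summed level of the 12 homeostatic genes in the same rat, a ratio that does not depend on how libraries are scaled. The mean ratio in TBI rats over that in sham rats was 2.04 for Gpnmb, 1.67 for Cd68, 3.17 for Lgals3 and 2.74 for Spp1. For Gpnmb and Lgals3 4 TBI rats were above all sham rats, for Spp1 3 and for Cd68 1. By contrast the ratio was 1.05 for Apoe, 1.11 for Cd9, 1.11 for Cd63 and 0.747 for Lpl. For Apoe and Cd9, 0 and 2 TBI rats were above all sham rats. For Cd63 all 5 TBI rats were, with a lowest TBI ratio of 0.291 and a highest sham ratio of 0.290. The share of all rows with such a separation in this ratio was not determined, so nothing is read from it. These ratios use the contrast that chose the genes and are given with no test.

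**Figure D3:**
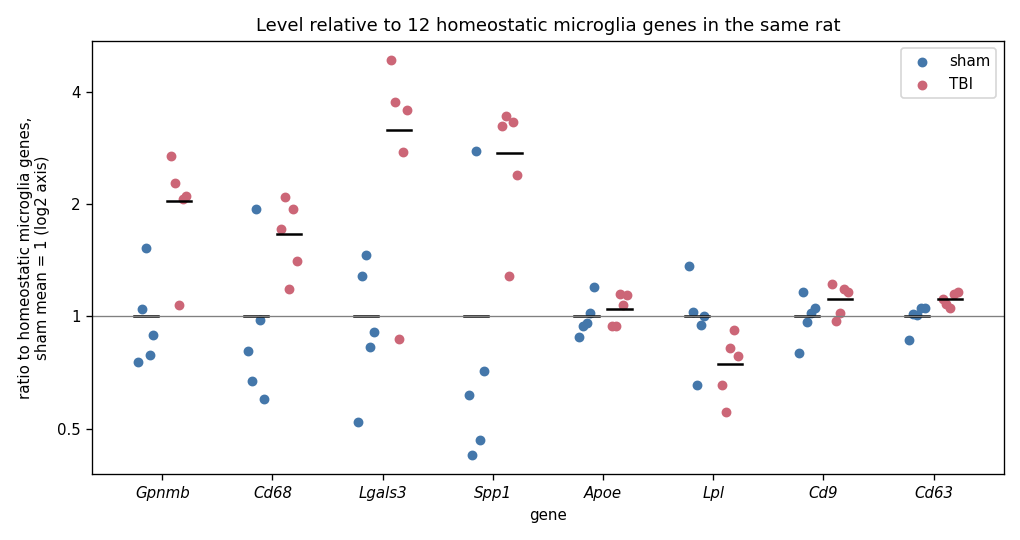
CPM of each tested gene divided by the summed CPM of 12 homeostatic microglia genes in the same rat, scaled so that the sham mean is 1 (vertical axis, log2), for 5 sham (blue) and 5 TBI (red) rats, with bars at the group means. The TBI means of Gpnmb, Lgals3 and Spp1 are at 2.04, 3.17 and 2.74, while those of Apoe, Cd9 and Cd63 are near 1.

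Related genes were then read in 5 lists: other disease-associated microglia genes, homeostatic microglia genes, partners of the 10, their family relatives, and transcription factors. Of 108 genes listed, 102 had a row and 91 were tested. Of these, 31 were higher in TBI rats at an unadjusted p under 0.05 and 2 were lower, against 4.89% and 3% of all rows, and 0 passed after adjustment (edgeR). The median log2 change of the 91 genes was 0.22. As several were in the study's own list, these counts are not independent of it. With sham rats 4 and 5 left out, 10 of 92 tested genes passed the unadjusted threshold, all higher, against 3.30% of all rows higher and 2.29% lower in that fit. With the ribosomal RNA share as a covariate 7 of 91 were higher and 1 lower, against 2.45% and 1.97% of all rows, so these shares were nearer to the background than in the comparison of all 10 rats. Without TBI rat 1, 20 genes were higher and 1 lower, against 4.18% and 3.43% of all rows.

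Other disease-associated microglia genes gave 10 of 26 tested genes higher, 0 lower and a median of 0.24 on the log2 scale. The 6 with the smallest p were Plin2, the coat protein of lipid droplets (log2 change 0.47, standard error 0.125), the receptor kinase Axl (0.39), the proteases Ctsd (0.29) and Ctsz (0.49), Tyrobp (0.62) and B2m (0.24), the light chain of class I antigen-presenting molecules. Below the filter were 6 of the 32 genes, Cd52, Ccl3, Ccl4, Ccl6, Lilrb4 and Atp6v0d2. Homeostatic microglia genes gave 4 of 12 higher (among them Aif1, Slc2a5 and Sall1), 0 lower and a median of 0.23. P2ry12, the purinergic receptor lowered in the programme elsewhere, differed by 0.18 on the log2 scale (standard error 0.163), and Tmem119 by 0.22 (standard error 0.266).

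**Figure D4:**
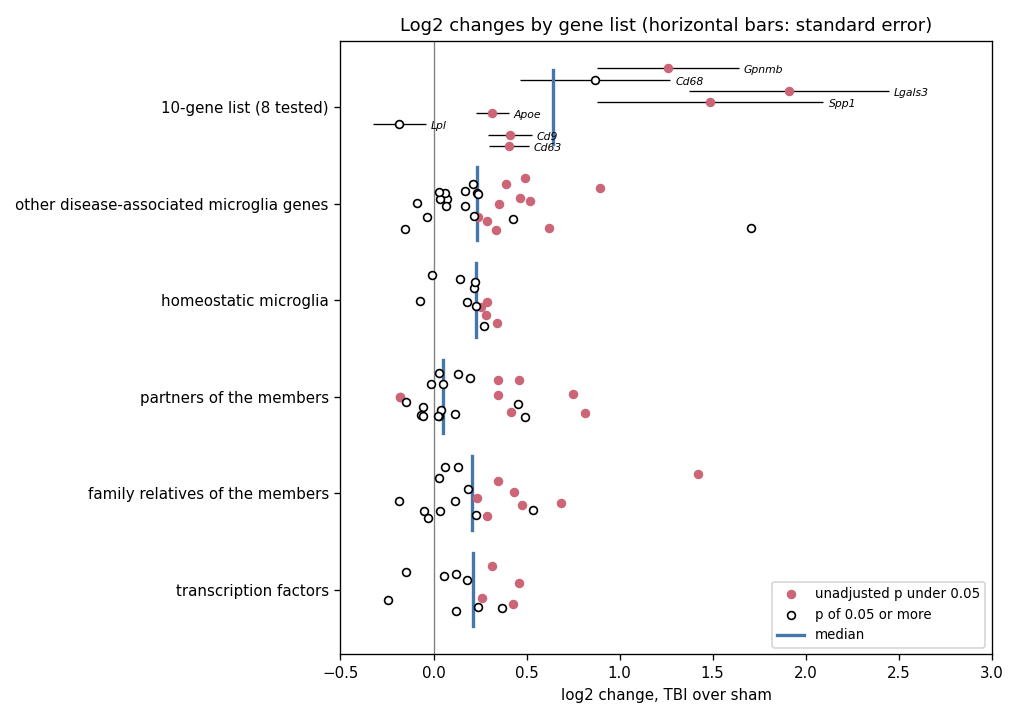
Log2 change, TBI over sham (horizontal axis), of the tested genes of the 10-gene list and of 5 lists of related genes, with standard errors for the first, filled points for an unadjusted p under 0.05 and vertical bars at the medians. The median is 0.64 for the 8 genes and between 0.05 and 0.24 for the other lists.

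Receptors, ligands, inhibitors and other partners of the 10 proteins gave 6 of 23 higher and 2 lower, with a median of 0.05. Higher were Cd44, the hyaluronan receptor that also binds osteopontin (log2 change 0.75, standard error 0.316), Timp1, a metalloproteinase inhibitor and ligand of Cd63 (0.82, standard error 0.288), the integrin chain Itgb2, which pairs with Itgax (0.41), its ligand Icam1 (0.46), the galectin ligand Lgals3bp (0.35) and the cathepsin Ctsh (0.35). The 2 lower genes were Vldlr (-0.18, standard error 0.0790) and Lrp8 (-0.18, standard error 0.0850), both receptors for Apoe. Levels of Vldlr were 26.3 ± 1.96 CPM in sham and 23.2 ± 1.48 CPM in TBI rats, and those of Lrp8 were 11.4 ± 0.653 and 10.1 ± 0.368 CPM.

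Family relatives gave 7 of 18 higher and 0 lower, with a median of 0.21. By the smallest p these were the integrin chain Itgal (log2 change 0.69), the endothelial lipase Lipg (1.42), the galectins Lgals1 (0.47) and Lgals9 (0.35), cystatin C, Cst3 (0.29), and the tetraspanin Cd82 (0.23). In Lipg each TBI rat was above each sham rat, as in 0.499% of all rows, on 50 reads in all. The transcription factors gave 4 of 12 higher and 0 lower, with a median of 0.21. Higher were Spi1, which encodes PU.1 (0.43), Irf8 (0.46), Rxra (0.31) and Tfeb (0.26). Mitf, a factor known to bind the M-box, had 1.28 ± 0.260 CPM in sham and 1.38 ± 0.254 CPM in TBI rats, 0.12 apart on the log2 scale (standard error 0.192).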

How the data were processed

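Poly-A RNA of 10 rats was read as single reads of 36 bases. The authors deposited raw counts per RefSeq RNA record, not normalized or pooled, with BWA and rn4 in their processing notes. The methods of the study name Ensembl transcripts and 3 controls for this assay. The rows here and the study's own list of altered genes are RefSeq records, and the labels give 5 sham rats. Symbols came from a RefSeq table of another assembly (54.2% of 32041 records). Unmapped reads (a median of 22.2%) stayed out of library sizes. Isoform rows share reads, and counting by strand was not stated.

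Rows with at least 44 counts in total, the 30th percentile, were tested in R 4.3.3 by edgeR 4.0.16 (glmQLFTest, its quasi-likelihood test, with TMM and robust estimation), adjusted over all 22431 rows. Standard errors are the log2 change over the square root of F. The code was tested on simulated data. Alternatives were DESeq2 1.42.0, limma 3.58.1 with voom, the exact test of edgeR, other scalings and filters, summed rows, the ribosomal RNA share and leaving rats out. The genes and lists were chosen with earlier results of these data known. Named genes were the 10 of the list, up to 6 per related list and direction by smallest p under 0.05, known partners and homeostatic markers, and the 6 most like Gpnmb. A further gene that this rule would name is not reported here.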

Additional observations from a re-analysis of the deposited data

Results flagged for a closer look

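In groups of 5 rats, the highest or lowest rat was set against the others by its gap to the nearest rat over the range of the group. Of 18 groups checked, 4 passed the 95% limit of Dixon's test, which chance passes in about 1 group in 20. The 18 groups share the same 10 rats and are not independent, so the count is not read against that rate. They include Cst7, with at most 4 reads in a library. Sham rat 3 stood apart for Gpnmb, with 21.8 CPM against 8.81 to 11.4 CPM in the other sham rats. It also stood apart for Cd68, with 4.13 CPM against 0.875 to 1.70 CPM, and for Spp1, with 2.47 CPM against 0.287 to 0.468 CPM. Sham rat 1 stood apart for Lpl, with 58.8 CPM against 32.9 to 39.1 CPM. TBI rat 3, the lowest injured rat for 7 of the 8 genes, did not pass this limit for any of them.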

How the results depend on the processing

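Of the 8 genes, Apoe, Cd63, Cd9 and Lgals3 kept their direction and an unadjusted p under 0.05 in all 21 alternatives, and Gpnmb in 19. Spp1 lost that p in 10 alternatives and Cd68 gained it in 6, with the direction kept. The number of the 8 genes under an unadjusted 0.05 was 6, and 4 to 7 in the alternatives (5 to 7 with single rats left out). Over all rows 2.45% to 16.8% passed as higher in the alternatives and 0.116% to 4.40% as lower. Scaling by total counts moved the median of all rows by 0.51 on the log2 scale, and 16.8% of all rows were then higher at an unadjusted p under 0.05, 0.116% lower and 0.410% past adjustment. Under it Lpl turned from -0.18 to 0.29, which is -0.21 relative to all rows, 4 of the 8 genes (Gpnmb, Lgals3, Spp1 and Cd68) passed after adjustment instead of 0, and the count of related genes was 52 instead of 33, all of them higher instead of 31 higher and 2 lower. Leaving out single rats gave 0 to 1 of the 8 genes past the adjusted threshold. These were Spp1 without sham rat 3 (edgeR, adjusted p = 0.0438), where 0.0223% of all rows passed, and Lgals3 without TBI rat 3 (edgeR, adjusted p = 0.0384), where 0.0535% did. With single rats left out, 21 to 43 related genes were under an unadjusted 0.05, against 3.26% to 7.05% of all rows higher and 1.91% to 4.40% lower. The related count was 8 with the ribosomal RNA share as a covariate and 10 without the 2 sham rats richest in it. The cause of these shifts was not tested. No paired analysis was possible because the replicate numbers only follow sample order and the labels give the groups no shared numbers. Cd68, Lgals3, Spp1 and Cst7 are limited by few reads, and Itgax was not analysed here.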
